A study of Mus musculus with 6 samples.

Results

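The genes described here are 10 heat shock proteins and co-chaperones, namely Hspa1a, Hspa1b, Hspa8, Hsph1, Bag3, Dnajb1, Hsp90aa1, Hspb1, Hspd1 and Hspe1, measured in mouse uterine epithelium in early pregnancy. Every probe set whose only gene symbol in the platform annotation was one of these names was taken, which gave 23 probe sets for the 10 genes, of 45037 probe sets tested and 18193 genes with a probe set of their own. They were grouped under a working name as cytosolic, which holds for 8 of them: Hspd1 and Hspe1 encode the chaperonin and co-chaperonin of the mitochondrial matrix. The epithelium came from Sox17 heterozygous females (Sox17GFP/+, a GFP allele beside a normal one) on day 4 of pregnancy (samples 253 and 281), from wild-type (WT) females on day 4 (277 and 284) and from WT females on day 1, the day a vaginal plug was found (302 and 303). All 6 preparations were uterine pieces digested with pancreatin and dispase, in steps from cold to body temperature, and each RNA was hybridised to 1 array. Ages are not given in the sources used here, and the labels do not say whether the samples of a group came from separate animals, so the p-values measure the spread between these samples, which may be technical.

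Heat shock proteins are molecular chaperones that bind unfolded or newly made proteins, prevent their aggregation and help them fold. HSP70 proteins cycle with ATP under the control of J-domain proteins such as DNAJB1, which deliver clients, and of nucleotide exchange factors such as HSPH1 and BAG3, while HSP90 matures kinases and steroid receptors, and small heat shock proteins hold unfolded clients without ATP. After heat or other proteotoxic stress the factor HSF1 binds heat shock elements, arrays of inverted GAA units, and raises transcription of many of these genes; others, such as Hspa8, are made at high levels in unstressed cells.

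The DNA before the transcript starts was examined for these elements because HSF1 acts there. RefSeq windows of build GRCm38.p6, from 250 bases before to 50 bases after an annotated start, were at hand for 8 of the 10 genes; Hspa8 and Hsp90aa1 had none. Searched were 2 pairs of units, head-to-head (GAANNTTC) and tail-to-tail (TTCNNGAA), each of which reads the same on both strands; matches of the 2 kinds may overlap by a shared unit. Of 32851 windows of this length, 7.86% held GAANNTTC, 8.52% held TTCNNGAA, 15.1% held either, 1.96% held at least 2 matches and 0.256% held at least 3. The bases before the starts of Hspa1a (chr17:34972157-34972406, minus strand), Hspa1b (chr17:34959239-34959488, minus strand) and Hspb1 (chr5:135887669-135887918, plus strand) are printed 5′ to 3′ with the matches in capitals, since the first pair are near copies of each other and Hspb1 had the clearest change with day.
Hspa1a: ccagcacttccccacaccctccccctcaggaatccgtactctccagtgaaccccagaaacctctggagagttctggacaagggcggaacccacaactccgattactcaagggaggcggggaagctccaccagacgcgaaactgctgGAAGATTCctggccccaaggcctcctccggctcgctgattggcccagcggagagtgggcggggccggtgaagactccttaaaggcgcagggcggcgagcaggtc
Hspa1b: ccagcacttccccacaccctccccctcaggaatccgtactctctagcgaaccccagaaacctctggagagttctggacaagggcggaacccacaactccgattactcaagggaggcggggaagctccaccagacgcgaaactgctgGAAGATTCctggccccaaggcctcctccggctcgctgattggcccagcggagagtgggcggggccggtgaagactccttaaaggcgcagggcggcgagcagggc
Hspb1: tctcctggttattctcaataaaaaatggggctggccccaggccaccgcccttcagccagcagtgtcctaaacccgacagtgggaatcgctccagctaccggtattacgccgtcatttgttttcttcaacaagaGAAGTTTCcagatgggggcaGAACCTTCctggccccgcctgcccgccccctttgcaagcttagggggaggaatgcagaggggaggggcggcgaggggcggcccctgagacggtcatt
Hspa1a and Hspa1b each held 1 head-to-head match beginning 104 bases before the start. Their windows differed at 4 of 300 positions (98.7% identical), 3 of them before the start, and the genes lie 10120 bases apart on chromosome 17. Hspb1 held 2 head-to-head matches, beginning 117 and 97 bases before the start.

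Shorter stretches hold the matches of Hspe1 (chr1:55088053-55088082, plus strand), Hsph1 (chr5:149636351-149636380 and chr5:149636287-149636308, minus strand) and Bag3 (chr7:128523614-128523632, plus strand), with the matched bases in capitals.
Hspe1: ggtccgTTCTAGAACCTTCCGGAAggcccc
Hsph1 before the start: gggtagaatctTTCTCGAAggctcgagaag
Hsph1 after the start: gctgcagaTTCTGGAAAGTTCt
Bag3: ggatgggaccaGAAGTTTC
In Hspe1, 3 overlapping matches ran from 89 to 72 bases before the start. Hspd1 lies beside it on the opposite strand of chromosome 1, their annotated spans share 96 bases, and the same run fell within the window of the second annotated Hspd1 start; the window of its first start held 0 matches. Hsph1 held 3 matches, 1 beginning 33 bases before its first start and 2 overlapping ones after it, while Bag3 held 1 match, after its start. Neither Dnajb1 window held either motif. These matches describe letters in the windows and show no binding.

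**Figure D1:**
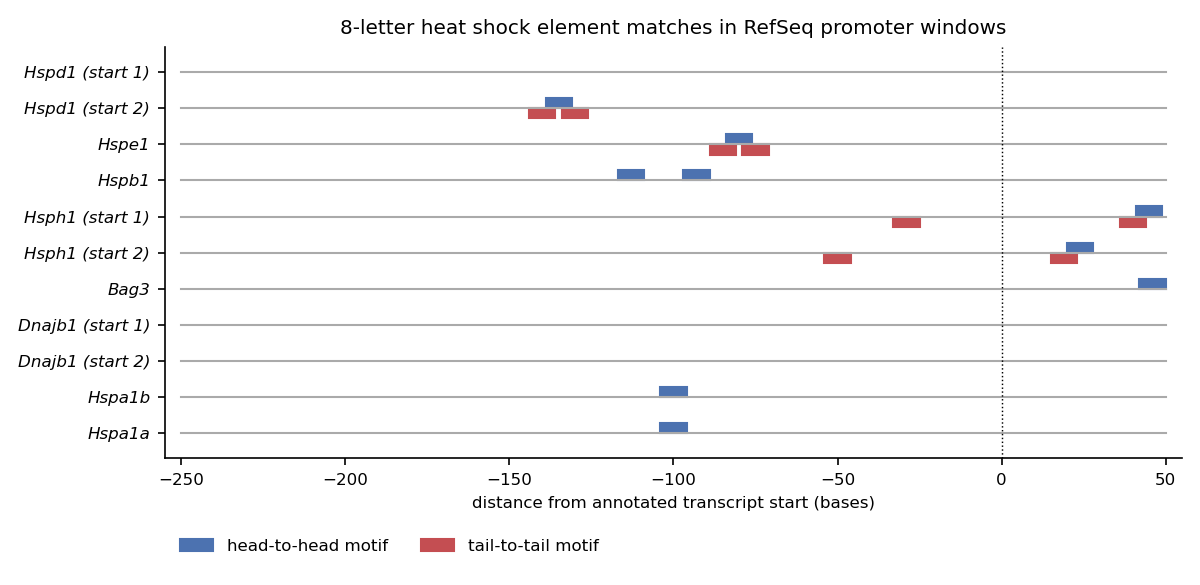
Matches of the 2 motifs in the RefSeq promoter windows of 8 genes, 1 line per annotated transcript start, against distance from the start in bases; blue boxes are head-to-head and red boxes tail-to-tail matches. Hspe1 and Hsph1 held 3 matches each, Hspb1 held 2, Hspa1a, Hspa1b and Bag3 held 1 each, and Dnajb1 held 0. Hspd1 held 0 at its first annotated start and 3, the run of Hspe1, at its second.

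Signals are linear intensities, and the mean of each array after trimming 2% of probe sets at each end was 500. WT day 4 array 277 stood apart: its median signal was 137, against 66.0 to 77.6 on the other 5, and 27.1% of its probe sets were under 50, against 41.6% to 44.7%. Of the 23 probe sets, 21 had a mean signal of at least 500 and 2 Hsp90aa1 probe sets (1433251_at and 1441827_x_at) were dim, between 7 and 41 on all 6 arrays, and are not used further for levels. Sox17 itself, read by 2 probe sets, had 13304 and 13061 in heterozygous, 22781 and 18473 in WT day 4 and 2394 and 2478 in WT day 1 epithelium on 1, and 30189 and 28810 in heterozygous, 34794 and 35060 in WT day 4 and 7738 and 8671 in WT day 1 epithelium on the other. Heterozygous values were lower than WT day 4 without overlap, by -0.64 ± 0.25 and -0.24 ± 0.24 on the log2 scale (limma adjusted p = 0.472 and 0.702), and whether the probes lie in the replaced part of the gene is not known here. Epithelial markers were bright in every preparation: 15 genes, among them Epcam, Cdh1 and Krt8, summed to 185988 and 186770 in Sox17 heterozygous, 179069 and 191041 in WT day 4 and 207890 and 200590 in WT day 1 epithelium. Stromal markers (12 genes) summed to 541 and 946 in heterozygous, 1974 and 2921 in WT day 4 and 3610 and 9050 in WT day 1 epithelium, with Pdgfra and Pdgfrb under 50 on all arrays; smooth muscle markers (10 genes) summed to 258 to 360 in heterozygous, 1122 to 1141 in WT day 4 and 997 to 1044 in WT day 1 epithelium, with 4 genes, Myh11 and Cnn1 among them, under 50 on all. The macrophage list (10 genes) summed to 13826 and 14430 in heterozygous, 17176 and 17271 in WT day 4 and 22702 and 21195 in WT day 1 epithelium, mostly Cd14 and, on day 1, also Cd68. The part of these markers in the results was not tested. Fewer cells of a type and less RNA per cell cannot be told apart in such samples.

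Changes are differences of log2(signal + 1) between group means, tested with limma across all 45037 probe sets with Benjamini-Hochberg adjustment, and errors after ± are the standard errors of limma's default fit (n = 2 arrays per group). The default fit is the test of record, and a fit whose prior variance follows the mean signal, the intensity trend, is given beside it. A value is said to pass when its adjusted p is under 0.05, with the fit named. The 3 comparisons share arrays and are not independent of each other. Where groups are said not to overlap, or arrays to exceed others, this only describes the arrays. The share of all probe sets that separate in the same way is not given here, so such separation is not read as a result.

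Between the WT days the 10 genes did not move as a block. Hspb1 was called higher on day 4 in the default fit. With the intensity trend Hspe1, Hspd1, Hsp90aa1, Hsph1 and Bag3 were also called higher and Hspa1a, Hspa1b and Dnajb1 lower, while Hspa8 passed in neither direction. The trend called 11 of the 23 probe sets higher and 6 lower, against 9.18% and 8.24% of all probe sets. After each array was centred on its median, only the Hspa1a call between the WT days remained, and only with the trend. Between Sox17 heterozygous and WT epithelium on day 4 nothing passed in the default fit, and the trend called Hspa1a higher and 1 of 2 Hsph1 probe sets lower in heterozygous epithelium, both calls that depended on single arrays.

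Hspa1a and Hspa1b encode the stress-inducible HSP70 proteins. Hspa1a (1452388_at) had signals of 3809 and 6619 in Sox17 heterozygous day 4, 1789 and 2420 in WT day 4 and 9183 and 8816 in WT day 1 epithelium. The 3 groups did not overlap, with heterozygous epithelium in the middle. In WT epithelium it was 4.32-fold lower on day 4 than on day 1 (log2 change -2.11 ± 0.38), which narrowly missed the threshold in the limma default fit (adjusted p = 0.0540) and passed with the intensity trend (adjusted p = 5.09e-05). In heterozygous against WT day 4 epithelium it was 2.41-fold higher (1.27 ± 0.38; adjusted p = 0.389 by default and 0.0186 with the trend). That trend call was lost without heterozygous array 281 (log2 change 0.87) and without WT day 4 array 277 (1.05), while the drop with day in WT passed in each of the 6 trend fits that left out 1 array, at changes of -2.33 to -1.89. Against WT day 1 it was 1.79-fold lower in heterozygous epithelium (-0.84 ± 0.38; adjusted p = 0.332 by default and 0.0333 with the trend), a call lost without array 253 (0.415), 302 (0.138) or 303 (0.102).

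Hspa1b was read by 3 probe sets, which gave 1 order of groups for 2 of them. Probe set 1427126_at had 12256 and 15168 in heterozygous, 9325 and 9922 in WT day 4 and 22218 and 22290 in WT day 1 epithelium. Probe set 1427127_x_at had 18408 and 21802 in heterozygous, 11858 and 15852 in WT day 4 and 29831 and 29193 in WT day 1 epithelium. Both placed heterozygous epithelium between the WT days without overlap. The third, 1452318_a_at, had 24391 and 24117 in heterozygous, 8272 and 17484 in WT day 4 and 25321 and 23292 in WT day 1 epithelium, so that heterozygous day 4 and WT day 1 values overlapped and the WT day 4 arrays lay far apart. In WT epithelium the 3 probe sets were 2.02-fold to 2.31-fold lower on day 4 than on day 1; none passed in the default fit (adjusted p = 0.0732 to 0.252) and all 3 passed with the trend (0.000215 to 0.0222), 1452318_a_at no longer without either day 1 array (0.107 and 0.0645). Heterozygous against WT day 4 changes were 0.50 ± 0.26, 0.55 ± 0.28 and 1.01 ± 0.43, and passed in neither fit. Heterozygous day 4 minus WT day 1 changes were -0.71 ± 0.26, -0.56 ± 0.28 and -0.00 ± 0.43, of which the first passed with the trend (0.0112) but not without array 253 (0.222), 302 or 303 (0.0665 each). Because the 2 genes are near copies and probe sets ending in _x_at can bind related transcripts, signal of one gene and of the other may be mixed.

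Hspa8 encodes the constitutive HSP70 protein of the cytosol. Its brightest probe set (1455789_x_at) had 29355 and 28920 in heterozygous, 14716 and 40465 in WT day 4 and 19191 and 34171 in WT day 1 epithelium, so that the WT arrays of either day spanned the heterozygous values. Probe set 1420623_x_at had 23350 and 21793 in heterozygous, 24299 and 26606 in WT day 4 and 17086 and 22980 in WT day 1 epithelium. Probe set 1420622_a_at had 10776 and 10672 in heterozygous, 5567 and 10004 in WT day 4 and 9040 and 6487 in WT day 1 epithelium. These 3 probe sets gave no shared order of groups. The fourth, 1431182_at, had 529 and 2367 in heterozygous, 792 and 1039 in WT day 4 and 3005 and 1870 in WT day 1 epithelium. No comparison of Hspa8 passed in either fit, and the changes lay between -1.38 and 0.52 with standard errors of 0.28 to 0.80.

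Dnajb1 encodes a J-domain protein that stimulates the HSP70 ATPase and is itself heat inducible. Probe set 1416755_at had 4690 and 5418 in heterozygous, 4940 and 4648 in WT day 4 and 8641 and 8268 in WT day 1 epithelium. Probe set 1416756_at had 5426 and 4581 in heterozygous, 7445 and 5551 in WT day 4 and 11003 and 9624 in WT day 1 epithelium. Both were lower on all 4 day 4 arrays than on either day 1 array. WT day 4 minus WT day 1 changes were -0.82 ± 0.24 and -0.68 ± 0.29, and heterozygous day 4 minus WT day 1 changes were -0.75 ± 0.24 and -1.05 ± 0.29. None of the 4 passed in the default fit (adjusted p = 0.143 to 0.256), and all passed with the trend (0.00165 to 0.0211), though the drop of 1416756_at within WT was lost without array 302 (adjusted p = 0.152) or 284 (0.0769), and that of 1416755_at in heterozygous epithelium without array 253 (0.111). The heterozygous against WT day 4 changes, 0.07 ± 0.24 and -0.37 ± 0.29, passed in neither fit.

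Hsph1, an HSP110 protein that serves as a nucleotide exchange factor for HSP70, and Bag3, which links HSP70 to small heat shock proteins and to autophagy, were highest in WT day 4 epithelium. Hsph1 1425993_a_at had 2214 and 2044 in heterozygous, 4317 and 4957 in WT day 4 and 1278 and 2415 in WT day 1 epithelium. Hsph1 1423566_a_at had 2036 and 1728 in heterozygous, 2650 and 3817 in WT day 4 and 1181 and 1525 in WT day 1 epithelium. Bag3 (1422452_at) had 2410 and 2411 in heterozygous, 3136 and 3876 in WT day 4 and 2077 and 1931 in WT day 1 epithelium. On all 3 probe sets both WT day 4 arrays exceeded the other 4. WT day 4 minus WT day 1 changes were 1.40 ± 0.39 and 1.24 ± 0.32 for Hsph1 and 0.80 ± 0.26 for Bag3, with adjusted p = 0.111 to 0.161 in the default fit and 0.00113 to 0.00433 with the trend, which each passed also in all 6 trend fits that left out 1 array. In heterozygous against WT day 4 epithelium Hsph1 1425993_a_at was 2.17-fold lower (-1.12 ± 0.39; adjusted p = 0.436 by default and 0.0421 with the trend). This trend call was lost without any 1 of the 4 day 4 arrays, after quantile normalization (adjusted p = 0.0666) and after centring (adjusted p = 0.657). The change itself was -1.22 to -1.02 with 1 array left out and -1.17 after quantile normalization, and was -0.67 after centring. The other Hsph1 probe set changed by -0.76 ± 0.32 and Bag3 by -0.53 ± 0.26, and neither passed in either fit.

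Hspb1 encodes HSP27 in human nomenclature, HSP25 in mouse, a small heat shock protein that also binds the actin cytoskeleton. Probe set 1422943_a_at had 20455 and 21460 in heterozygous, 25460 and 23691 in WT day 4 and 7531 and 8999 in WT day 1 epithelium. Probe set 1425964_x_at had 16379 and 17386 in heterozygous, 21175 and 18688 in WT day 4 and 4929 and 5520 in WT day 1 epithelium. All 4 day 4 arrays were well above both day 1 arrays, and heterozygous epithelium lay a little under WT day 4. Hspb1 rose with day in WT epithelium, by 1.58 ± 0.25 (2.98-fold) and 1.93 ± 0.25 (3.81-fold), the only member to pass between the WT days in the limma default fit (adjusted p = 0.0425 and 0.0297). With 1 array left out, the default adjusted p was 0.063 to 0.226 and 0.0498 to 0.189, under the threshold only for the second and without array 284, while all 6 such trend fits passed. Centring on the median ended both WT calls in both fits, with changes of 1.27 and 1.63 in the same direction (limma adjusted p = 0.273 and 0.159 by default, 0.371 and 0.181 with the trend). In heterozygous day 4 against WT day 1 epithelium 1425964_x_at rose by 1.69 ± 0.25 (3.23-fold, default adjusted p = 0.0459) and 1422943_a_at changed by 1.35 ± 0.25 (default adjusted p = 0.0708, trend 0.000109). The default call of 1425964_x_at was not kept with any 1 array left out, at changes of 1.61 to 1.78. After centring its change was 1.84 and passed in neither fit (limma adjusted p = 0.142 by default and 0.152 with the trend). Heterozygous minus WT day 4 changes were -0.23 ± 0.25 and -0.24 ± 0.25, within the standard error.

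Hsp90aa1 encodes the inducible HSP90 protein, whose clients include the oestrogen and progesterone receptors. Probe set 1438902_a_at had 17952 and 17085 in heterozygous, 14887 and 19177 in WT day 4 and 11885 and 9875 in WT day 1 epithelium. Probe set 1426645_at had 10998 and 10824 in heterozygous, 11397 and 12781 in WT day 4 and 6467 and 7355 in WT day 1 epithelium. Probe set 1437497_a_at had 7415 and 6206 in heterozygous, 6995 and 7374 in WT day 4 and 4594 and 5343 in WT day 1 epithelium. On each, all 4 day 4 arrays exceeded both day 1 arrays. The WT changes with day were 0.64 ± 0.28, 0.81 ± 0.25 and 0.54 ± 0.26, which did not pass by default (adjusted p = 0.148 to 0.304) and passed with the trend (0.00287 to 0.0387); with 1 array left out, 1437497_a_at passed in 0 of 6 trend fits, 1438902_a_at in 2 (not without 253, 281, 303 or 284) and 1426645_at in 6. Against WT day 1, heterozygous changes of 0.69 ± 0.28 (1438902_a_at) and 0.66 ± 0.25 (1426645_at) passed with the trend (adjusted p = 0.0198 and 0.0120) and were lost without 253, 281 or 1 of the day 1 arrays (303 and 302 in that order; adjusted p = 0.112 to 0.190). The third, 1437497_a_at, changed by 0.45 ± 0.26 against WT day 1 and passed in neither fit (adjusted p = 0.440 by default and 0.0918 with the trend). Heterozygous against WT day 4 changes were between -0.15 and 0.05.

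The mitochondrial chaperonin pair also had higher signals on day 4, but none of its changes passed in the default fit. Hspe1 1450668_s_at had 6790 and 8210 in heterozygous, 8140 and 9917 in WT day 4 and 3153 and 3344 in WT day 1 epithelium. Hspe1 1422579_at had 1639 and 1904 in heterozygous, 1537 and 2691 in WT day 4 and 961 and 1224 in WT day 1 epithelium. Hspd1 (1426351_at) had 8331 and 9053 in heterozygous, 9838 and 7417 in WT day 4 and 4805 and 5622 in WT day 1 epithelium. All 4 day 4 arrays were above both day 1 arrays on each of the 3 probe sets, and the day 4 groups overlapped. In WT epithelium Hspe1 1450668_s_at was 2.77-fold higher on day 4 (1.47 ± 0.27), just short of the threshold in the default fit (adjusted p = 0.0553) and called with the trend (5.4e-05) also when any 1 array was left out. The changes of Hspe1 1422579_at, 0.91 ± 0.38, and of Hspd1, 0.72 ± 0.28, passed with the trend (adjusted p = 0.0230 and 0.0133) and were lost without array 302 (0.161 and 0.121) and without 284 for Hspe1 (0.106) or 277 for Hspd1 (0.0567). Against WT day 1, heterozygous changes of 1.20 ± 0.27 for Hspe1 1450668_s_at and 0.74 ± 0.28 for Hspd1 passed with the trend (adjusted p = 0.000333 and 0.0130), the second lost without 253, 281 or 302 (0.0643 to 0.137). Hspe1 1422579_at changed by 0.70 ± 0.38 in the same comparison and passed in neither fit (adjusted p = 0.413 by default and 0.0861 with the trend). Heterozygous against WT day 4 changes of the pair were -0.27, -0.20 and 0.02. The default adjusted p of the WT changes with day was 0.249 for Hspe1 1422579_at and 0.226 for Hspd1. After centring on the median no call of the pair remained in either fit. The WT changes were then 1.16 for Hspe1 1450668_s_at, 0.60 for 1422579_at and 0.41 for Hspd1 (limma trend adjusted p = 0.297, 0.616 and 0.765).

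**Figure D2:**
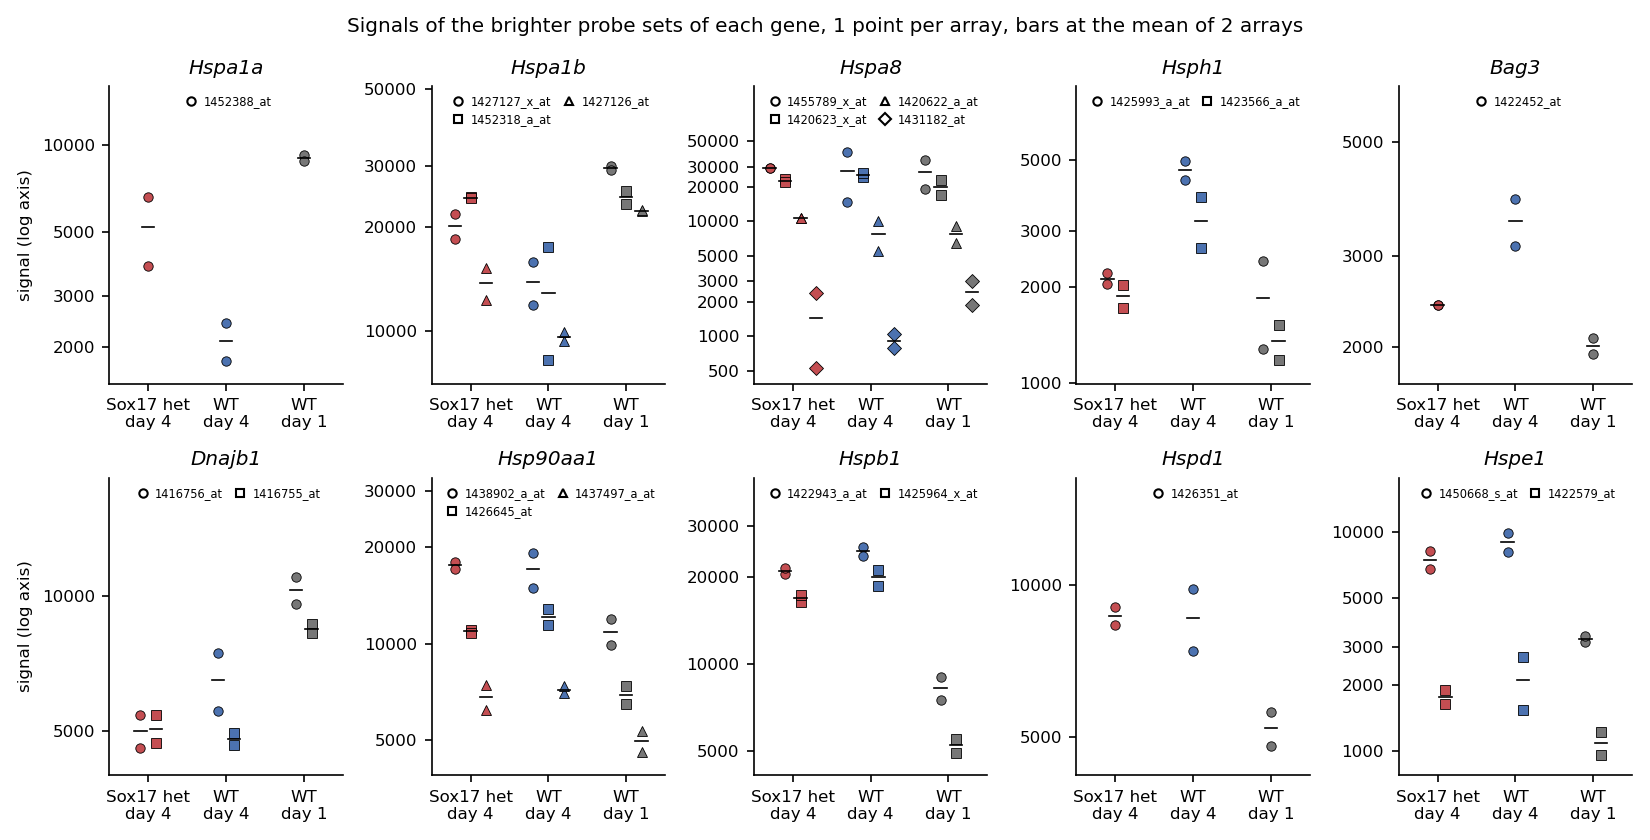
Signal on each array (log axis) of the 21 probe sets with a mean of at least 500, by gene and group, with 1 point per array and bars at the mean of 2 arrays. Hspa1a was lowest in WT day 4 and highest in WT day 1 epithelium, Hspb1, Hspe1, Hspd1 and Hsp90aa1 were higher on all day 4 than on day 1 arrays, and Hsph1 and Bag3 were highest in WT day 4 epithelium.

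Counted over the 23 probe sets in heterozygous against WT day 4 epithelium, the default fit called 0 higher and 0 lower. It called 0% of all probe sets in either direction. In that fit 2 of the 23 had an unadjusted p under 0.05, as did 4900 of all 45037 probe sets, so the 2 are not read as a result. The trend fit called 1 higher (Hspa1a) and 1 lower (Hsph1), against 1.09% and 0.813% of all probe sets. In heterozygous day 4 against WT day 1 epithelium the default fit called 1 higher and 0 lower (background 1.91% and 1.86%) and the trend fit 6 higher and 4 lower (7.59% and 6.79%). In WT day 4 against WT day 1 epithelium the default fit called 2 higher and 0 lower (3.26% and 2.68%) and the trend fit 11 higher and 6 lower (9.18% and 8.24%). The 21 brighter members exceeded at least 76.5% of all probe sets on each array, so the background shares are of mostly dimmer probe sets. After each array was centred on its median, which gives array 277 the largest shift, the trend fit kept 1 of the WT calls, Hspa1a lower on day 4 (adjusted p = 0.0241), and none in the other comparisons; no value that had passed in either fit changed direction. The median change over the 23 was -0.07 for heterozygous minus WT day 4, 0.28 for heterozygous minus WT day 1 and 0.54 for WT day 4 minus WT day 1. Over all probe sets these medians were -0.24, -0.04 and 0.27 in the same order of comparisons, and over the 11213 with a mean of at least 500 they were 0.05, 0.10 and 0.06.

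**Figure D3:**
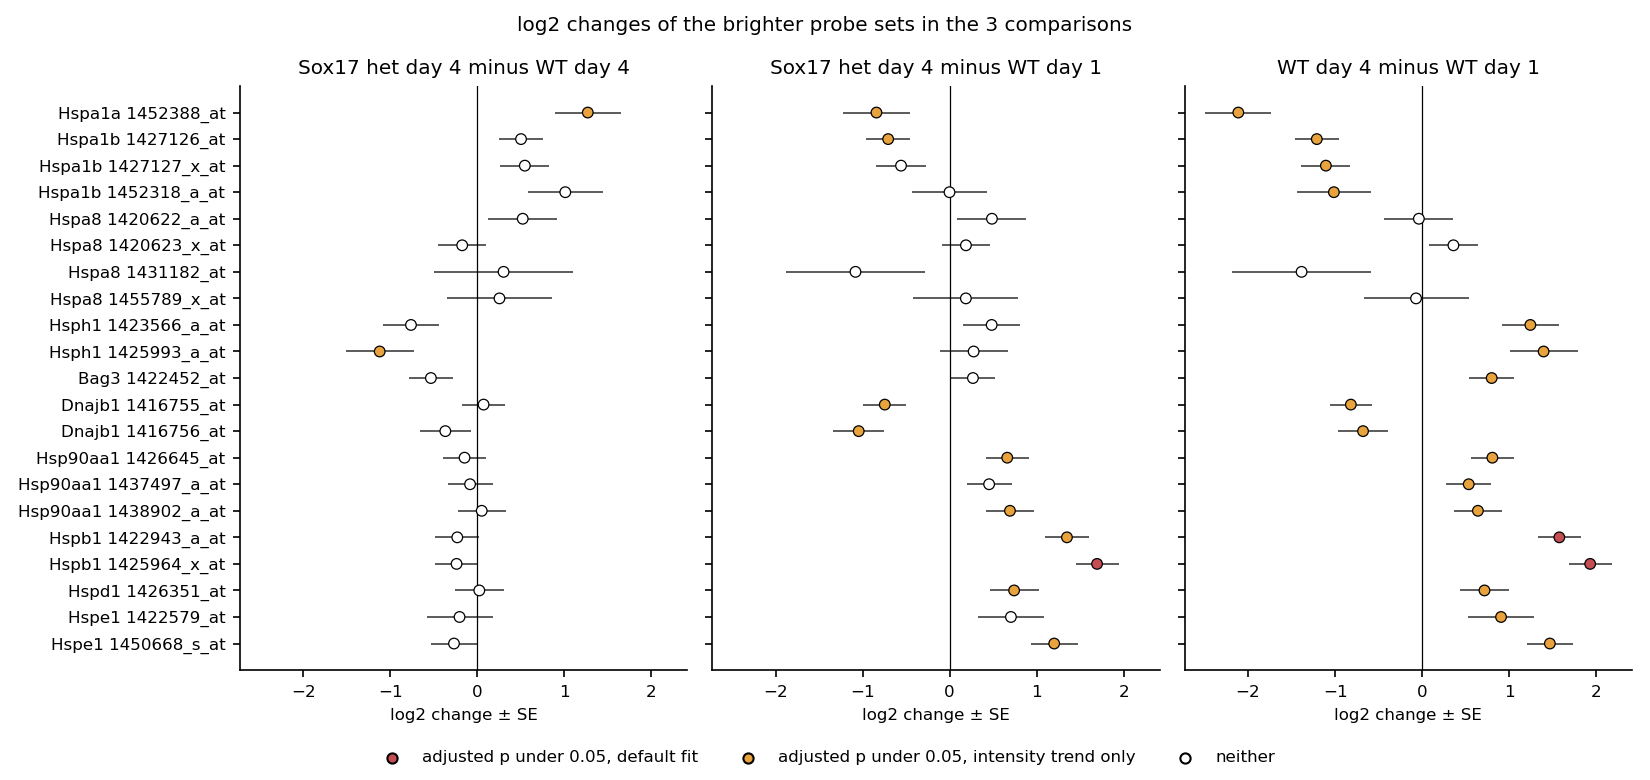
log2 change ± standard error of the 21 brighter probe sets in the 3 comparisons, with red points past the threshold in limma's default fit, orange points past it with the intensity trend only and white points in neither. Between WT days 2 Hspb1 probe sets are red and 15 others orange, while between the day 4 groups Hspa1a and 1 Hsph1 probe set are orange and the rest are white.

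Where heterozygous day 4 epithelium stood along the WT change from day 1 to day 4 differed by gene, as a description without a test. For Hspb1 it had reached 85.5% and 87.7% of the WT log2 change, for Hspe1 81.8% and 77.6%, for Hspd1 103%, for Hsp90aa1 82.0% to 108% and for Dnajb1 91.1% and 154%. For Hspa1a it had reached 39.8%, for Hspa1b 58.4%, 50.5% and 0.18%, for Hsph1 38.8% and 19.7% and for Bag3 33.4%. The 4 Hspa8 probe sets gave -1306%, -268%, 52.0% and 78.1%, but its WT change with day passed in neither fit and was near 0 (-0.04 and -0.07) for the 2 negative shares, so these ratios carry little meaning. The shares and their order also depended on the scaling, with both alternatives chosen for the shares after seeing the data. Quantile normalization left Bag3 at 31.1%, Hsph1 at 36.2% and 17.9% and Hspa1a at 40.6%. After centring on the median Bag3 stood at 83.4%, Hsph1 at 66.9% and 38.6%, Dnajb1 at 53.4% and 91.5%, Hspa1a at 28.8% and Hspa1b at 37.0%, 29.3% and -11.0%. Hspb1 then stood at 117% and 113%, Hspe1 at 116% and 141%, Hspd1 at 215% and Hsp90aa1 at 160% to 258%. Each share is a ratio of changes that share the same arrays and carry their errors.

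Other genes of the chaperone network, in lists chosen by function, were read beside the members. Between the WT days 3.26% of all probe sets rose and 2.68% fell in the default fit, and 9.18% and 8.24% with the trend. The counts of each list are read against these shares. Among the small heat shock proteins, Hspb8, a partner of BAG3, had 2944 and 2512 in heterozygous, 3332 and 3233 in WT day 4 and 67 and 102 in WT day 1 epithelium, and rose with day in WT by 5.29 ± 0.31 (limma default adjusted p = 0.0128). The list had 14 probe sets of 8 genes, of which 4 rose and 0 fell with day in WT by default. These were 3 of Hspb8 and 1 of Hspb7 with signals of 2 to 15, and with the trend 3 rose and 0 fell. Among 44 probe sets of 14 J-domain genes 4 rose and 0 fell by default, 3 of Dnaja1 and 1 of Dnajb5 with signals of 9 to 60. The trend called 4 higher and 3 lower in this list, and the Dnajb5 probe set did not pass with it (limma adjusted p = 0.121). Dnaja1, a cytosolic partner of HSPA8, had 17361 and 20214 in heterozygous, 24909 and 26596 in WT day 4 and 6439 and 8126 in WT day 1 epithelium, a rise of 1.83 ± 0.27 (default adjusted p = 0.0370). Of 19 probe sets of 7 further HSP70 family genes 1 rose and 0 fell by default, and 3 rose and 0 fell with the trend. The probe set called by default reads Hspa4, an HSP110 relative of Hsph1, and rose by 1.68 ± 0.26 (default adjusted p = 0.0413). The brightest Hspa4 probe set changed by 0.83 ± 0.26 (default adjusted p = 0.151, trend 0.00291). Hspb7, Dnajb5 and the first Hspa4 probe set were named after their values were seen.

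Of 10 probe sets of 7 BAG and exchange factor genes, 2 rose (both Bag5) and 1 fell with day in WT by default. The trend called 3 higher and 1 lower. Bag5 had 1653 and 2178 in heterozygous, 5035 and 5455 in WT day 4 and 453 and 547 in WT day 1 epithelium, and rose with day in WT by 3.39 ± 0.28 (default adjusted p = 0.0167). Against WT day 4 it was lower in heterozygous epithelium on both arrays, by -1.47 ± 0.28 (default adjusted p = 0.284, trend 0.00269). Sil1, the exchange factor of the endoplasmic reticulum, fell by 2.35 with day in WT (SE 0.28, default adjusted p = 0.0267). Of 29 probe sets of 13 measured HSP90 and HSP70 co-chaperones 1 rose and 0 fell by default, and 6 rose and 0 fell with the trend. The default call was Ahsa2, related to the HSP90 activator AHA1. Ahsa2 had 1306 and 1457 in heterozygous, 3176 and 3395 in WT day 4 and 467 and 757 in WT day 1 epithelium. It rose by 2.46 ± 0.33 with day (default adjusted p = 0.0326). Its heterozygous minus WT day 4 change was -1.25 ± 0.33 (default adjusted p = 0.358, trend 0.0139). Stip1, the adaptor between HSP70 and HSP90, changed with day by 0.91 ± 0.26 (default adjusted p = 0.137, trend 0.00309). Fkbp4, the HSP90 co-chaperone of the progesterone receptor, was not in this list but among the other heat-inducible genes counted below. It changed with day by 1.37 ± 0.31 (default adjusted p = 0.0825, trend 0.000285).

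The cytosolic TRiC chaperonin and prefoldin gave 0 calls in the default fit among 35 probe sets of 14 genes between WT days and 2 higher and 1 lower with the trend. Of 30 probe sets of 13 measured genes of mitochondrial folding and proteolysis, 0 rose and 1 fell with day by default, and 1 rose and 4 fell with the trend. The default call was Grpel2, an exchange factor of mitochondrial HSP70, which fell by 1.84 (SE 0.31, limma default adjusted p = 0.0466). Hspa9, that HSP70 itself, had 3112 and 3478 in heterozygous, 1630 and 2187 in WT day 4 and 3355 and 2965 in WT day 1 epithelium. Its signal was lowest on the WT day 4 arrays, unlike Hspd1 and Hspe1 of the same compartment, with changes of -0.74 ± 0.28 with day in WT (default adjusted p = 0.216, trend 0.0125) and 0.80 ± 0.28 in heterozygous against WT day 4 (default 0.441, trend 0.0464). Over the lists of chaperones and co-chaperones the default fit called 0 probe sets between the day 4 groups, and the trend fit called 1 each of Bag5, Ahsa2 and Hspa9. These came from lists of 10, 29 and 30 probe sets in that order, and the other chaperone lists gave none. Over all probe sets the trend fit called 1.09% higher and 0.813% lower in this comparison.

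Hsf1 and Hsp90ab1 had no probe set of their own and are not analysed here. Of 8 probe sets of 5 measured HSF regulator genes 0 rose and 0 fell with day in WT by default, and 1 rose and 0 fell with the trend. That one, named after its values were seen, reads Hsbp1, which encodes an HSF1-binding protein, with 2255 and 1929 in heterozygous, 2690 and 2330 in WT day 4 and 1550 and 1302 in WT day 1 epithelium. It changed with day in WT by 0.82 ± 0.27 (limma default adjusted p = 0.167, trend 0.00569). The brightest probe sets of Hsf2, Hsf4, Hsf5 and Hsf2bp had signals of 8 to 309, highest on array 277. Of 28 probe sets of 12 other heat-inducible genes, 2 rose (both Rgs2) and 3 fell (2 of Ier5, 1 of Mlkl) with day in WT by default. The trend called 9 higher and 4 lower. The brightest probe sets changed by 3.37 ± 0.32 for Rgs2 (default adjusted p = 0.0187), -4.40 ± 0.44 for Ier5 (0.0199) and -5.56 ± 0.69 for Mlkl (0.0283). Immediate early genes, which respond to growth factors and also to tissue digestion, were read because all preparations were digested. Of 47 probe sets of 25 genes 4 rose (3 of Nr4a2, 1 of Nr4a1) and 3 fell (Fosl2, Ier3 and, named after its values were seen, Egr2) with day in WT by default, and 7 rose and 20 fell with the trend, where the background was 9.18% and 8.24%. Their median change was -0.61, against 0.27 over all probe sets and 0.06 over those with a mean of at least 500. Ier3 had 17140 and 15780 in heterozygous, 6463 and 9534 in WT day 4 and 36826 and 38673 in WT day 1 epithelium, the same order of groups as Hspa1a. Nr4a2, by contrast, rose with day in WT by 2.68 ± 0.28 (default adjusted p = 0.0206). The part of the digestion in the signals of the heat shock genes was not tested.

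**Figure D4:**
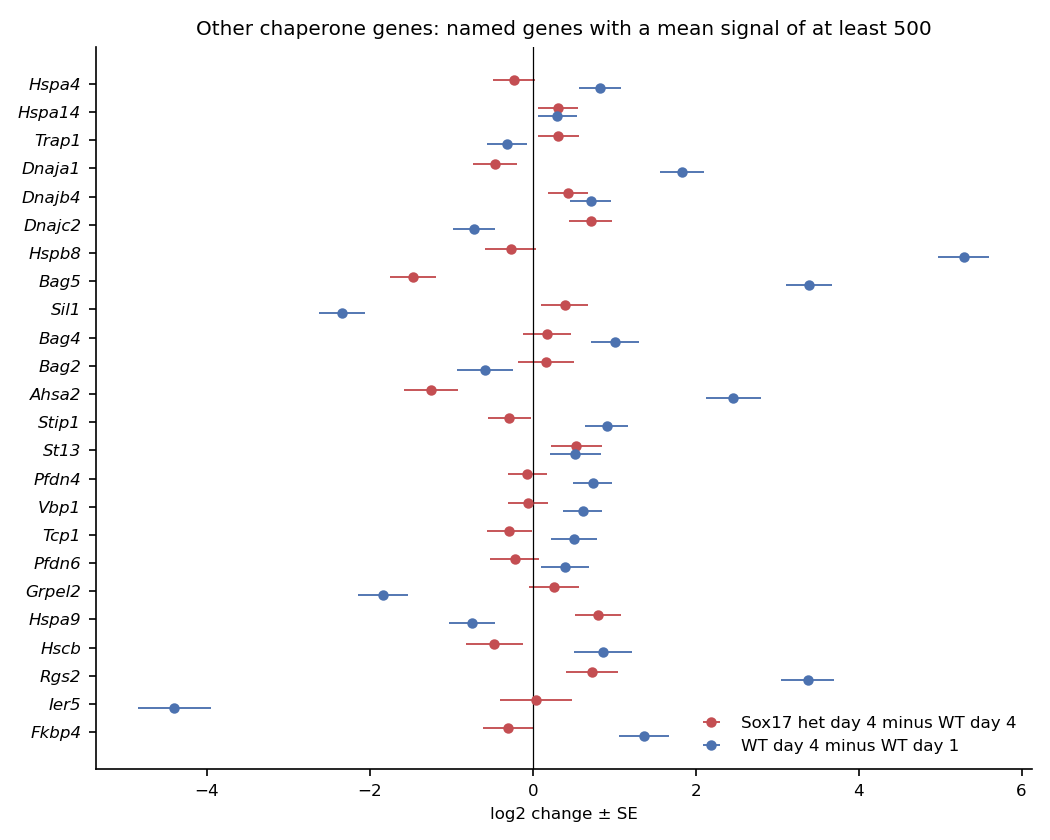
log2 change ± standard error of other chaperone and heat-inducible genes with a mean signal of at least 500, in Sox17 heterozygous minus WT day 4 (red) and WT day 4 minus WT day 1 (blue). Hspb8 had the largest rise with day at 5.29, Ier5 the largest fall at -4.40, and Bag5 and Ahsa2 stand at -1.47 and -1.25 between the day 4 groups.

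Genes most like a member over the 6 arrays were found by the root-mean-square difference of log2 values centred on each gene's mean, among 10591 genes with a mean signal of at least 100. Nearest to Hspa1a were Tmed5, Pdk1 and Nars2, at differences of 0.200, 0.222 and 0.229. Tmed5, for example, had 1507 and 1722 in heterozygous, 648 and 927 in WT day 4 and 3374 and 3048 in WT day 1 epithelium. Nearest to Hspd1 were Mcu, Eif3i and Tfip11, at 0.054, 0.063 and 0.068. Among the members, the closest pair was Hspb1 and Hspe1 at 0.150, but many other genes were nearer to each. Among all such genes Hspe1 ranked 69 in nearness to Hspb1, and Hspb1 ranked 56 in nearness to Hspe1. Hspa1a and Hspa1b, the latter read by 1427127_x_at alone, stood 0.453 apart.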

How the data were processed

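RNA was amplified with biotin labelling and run on Affymetrix 3′ arrays of 1 colour, 1 per sample, per the labels' protocols. What the authors deposited is an intensity for each probe set, unlogged. The submitters' processing notes name Affymetrix Expression Console, Transcriptome Analysis Console and RMA, with no version or role stated, but RMA writes log2 values and these are linear with a trimmed mean of 500 on each array, so the summary used is not known. No detection calls were used, so a dim signal has no known relation to background.

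Of 45101 probe sets, 64 controls were left out; 34945 had 1 gene symbol in the platform annotation, 932 several and 9160 none, and the 23 of the 10 genes were taken from the first. A pseudocount of 1 was added before log2, and the arrays were neither rescaled nor filtered. The model in limma 3.58.1, under R 4.3.3, had 1 mean for each of the 3 groups over 6 arrays, which leaves 3 residual degrees of freedom, with eBayes at default settings, two-sided tests and Benjamini-Hochberg adjustment over 45037 probe sets. The steps were tested on simulated data. Only 2 arrays per group limit the precision, and no batch is labelled. Members, gene lists and the intensity trend as a companion fit were chosen with earlier results of these data known. Named are all members, up to 4 genes of smallest p per list, and the 3 genes nearest to Hspa1a and to Hspd1. Where 1 probe set per gene was needed, the one of highest mean was used. Promoter windows are from RefSeq (GRCm38.p6). Tried were other scalings, pseudocounts, filters, priors, weights, thresholds and leaving out each array.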

Additional observations from a re-analysis of the deposited data

How the results depend on the processing

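Counts of members called by the limma default fit are given in the order heterozygous minus WT day 4 higher and lower, heterozygous minus WT day 1 higher and lower, WT day 4 minus WT day 1 higher and lower, and as analysed were 0, 0, 1, 0, 2 and 0. They became 1, 1, 6, 4, 11 and 6 with the intensity trend, 0, 0, 4, 3, 7 and 4 both with a mean signal of at least 100 and with a pseudocount of 100 (chosen after seeing the data), and 0, 0, 3, 0, 4 and 3 with a pseudocount of 32. With array weights they were 0, 0, 3, 0, 0 and 0, with 1 probe set per gene 0, 0, 2, 0, 2 and 1, at an adjusted p of 0.10 0, 0, 2, 0, 3 and 2, after quantile normalization 0, 0, 1, 0, 3 and 1, and with a robust prior 0, 0, 0, 0, 2 and 0. After centring on the median, and when only the 4 arrays compared were fitted, all 6 counts were 0. Calls over all probe sets, both directions together, moved too. In the same 3 comparisons they were 0, 1700 and 2674 as analysed and 859, 6476 and 7844 with the trend. With a mean signal of at least 100 they were 152, 5929 and 7306. After centring they were 0, 1237 and 1946, and with 4 arrays 0, 1894 and 0. Leaving out 1 array ended nearly all member calls of the default fit. Without array 302, 303, 253 or 281 calls were lost over all probe sets as well, not only among members. A group left with 1 array was assumed to vary like the others. With the trend, counts after leaving out each array (chosen after seeing the data) were 0 to 4, 0 to 1, 3 to 7, 1 to 5, 8 to 9 and 4 to 7. Centring with the trend gave 0, 0, 0, 0, 0 and 1, the last being Hspa1a; the trend with quantile normalization and with a mean signal of at least 100 (both chosen after seeing the data) gave 0 for heterozygous minus WT day 4 lower. Centring moved the median change of the brighter probe sets to 0.50, 0.25 and -0.25 in the 3 comparisons, against 0.05, 0.10 and 0.06 without it, array 277 having the highest median signal. No value that passed in either fit changed sign; 82 that passed in neither did, and other single values kept direction and side of the threshold in 1545 cases, lost a call in 97 and gained one in 88. No paired analysis was possible because no replicate number is shared between groups. The signals carry no background estimate, which limits the dim probe sets most.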
